A study of Mus musculus with 10 samples.

Results

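The cyclin-dependent kinase (CDK) inhibitors of the INK4 and CIP/KIP families were followed in tumours of Hepa1-6, a mouse hepatoma cell line. They comprised 7 genes, chosen by name, of 54986 gene identifiers: Cdkn1a, Cdkn1b and Cdkn1c of the CIP/KIP family and Cdkn2a, Cdkn2b, Cdkn2c and Cdkn2d of the INK4 family. Hepa1-6 cells had been placed under the skin of C57/BL6 mice and the tumours had grown for 4 weeks. RNA with poly-A tails was sequenced from 5 tumours treated with vehicle and 5 treated with GSK343, which inhibits EZH2, an enzyme that methylates histones. The vehicle tumours carry the numbers 1, 2, 3, 5 and 6 and the GSK343 tumours 1 to 5. Titles beginning with C were taken as vehicle because the series names only these 2 treatments. The labels further name antibodies, a control and 1 against asialo-GM1, which depletes natural killer cells. Which mouse received which is not stated. The antibody and the drug therefore cannot be told apart where they coincide. No dose, sex or age is given in the labels used here.

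CDK inhibitors are small proteins that hold back the kinases of the G1 phase of the cell cycle. INK4 proteins bind CDK4 and CDK6 and keep D-type cyclins from activating them, so that the retinoblastoma protein stays unphosphorylated and restrains E2F transcription factors. CIP/KIP proteins bind complexes of cyclin and kinase and block above all those of CDK2. Cdkn1a, which encodes p21, is a classic target of p53. The Cdkn2a and Cdkn2b genes lie side by side and are textbook targets of Polycomb repression, the machinery to which EZH2 belongs.

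All 7 genes had 1 line each in the deposited table, and the values are FPKM, fragments scaled to exon length and to the size of the library. Tumour sums of FPKM ran from 574547 to 623397, and 13985 to 14714 lines per tumour reached 1 FPKM. Sequencing depth, inferred from steps in the low values, was 38.1 to 50.5 M reads. The mitochondrial share of the summed FPKM was 7.17% in GSK343 tumour 3 and 7.11% in GSK343 tumour 5, against 2.63% to 5.05% elsewhere. The defining hepatoma transcripts Afp (1465 to 2424 FPKM) and Alb (2380 to 3658 FPKM) were abundant in each of the 10 tumours. Groups were compared by limma on log2(FPKM + 1). The 14496 lines that averaged 1 FPKM or more were tested. A line was called at a Benjamini-Hochberg adjusted p under 0.05.

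Promoter sequences of 6 of the 7 genes were taken from RefSeq (GRCm38.p6, the mm10 assembly). They comprise 9 start sites, each with 250 bases before and 50 bases after the start. Both Cdkn1a starts, both Cdkn2a starts and the Cdkn2b start are shown. Cdkn1a has the largest estimate among the tested members below, and the other genes are the Polycomb targets of the family. Bases within annotated exons are left out. Capitals mark a p53 site in the first sequence and GC boxes, the letters GGGCGG on either strand, in the others.
Cdkn1a, upstream start, chr17:29090729-29090975, plus strand: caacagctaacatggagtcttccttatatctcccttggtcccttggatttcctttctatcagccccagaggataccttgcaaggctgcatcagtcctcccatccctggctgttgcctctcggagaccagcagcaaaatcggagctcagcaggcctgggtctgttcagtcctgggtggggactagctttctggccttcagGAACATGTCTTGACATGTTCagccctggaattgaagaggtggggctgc
Cdkn1a, downstream start, chr17:29093519-29093768, plus strand: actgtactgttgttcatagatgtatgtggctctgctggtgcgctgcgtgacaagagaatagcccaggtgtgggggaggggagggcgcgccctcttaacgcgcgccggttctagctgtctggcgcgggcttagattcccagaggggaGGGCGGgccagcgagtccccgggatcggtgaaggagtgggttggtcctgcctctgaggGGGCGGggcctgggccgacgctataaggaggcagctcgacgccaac
Cdkn2a, p16Ink4a start, chr4:89282193-89282442, minus strand: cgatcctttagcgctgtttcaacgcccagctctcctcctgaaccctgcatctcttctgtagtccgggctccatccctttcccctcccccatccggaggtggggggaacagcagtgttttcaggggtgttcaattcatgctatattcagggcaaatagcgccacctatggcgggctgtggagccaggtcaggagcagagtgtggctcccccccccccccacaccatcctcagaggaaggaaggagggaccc
Cdkn2a, p19Arf start, chr4:89294654-89294869, minus strand: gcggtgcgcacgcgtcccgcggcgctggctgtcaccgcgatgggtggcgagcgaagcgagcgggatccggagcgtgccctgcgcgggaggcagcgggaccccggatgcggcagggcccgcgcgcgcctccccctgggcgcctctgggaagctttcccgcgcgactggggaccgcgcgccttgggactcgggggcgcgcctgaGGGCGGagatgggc
Cdkn2b, chr4:89311040-89311282, minus strand: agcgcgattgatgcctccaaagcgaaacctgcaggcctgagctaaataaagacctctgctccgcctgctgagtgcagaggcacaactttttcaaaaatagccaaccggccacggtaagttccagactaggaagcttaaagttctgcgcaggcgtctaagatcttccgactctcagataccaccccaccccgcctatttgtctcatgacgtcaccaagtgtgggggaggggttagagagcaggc

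The upstream Cdkn1a promoter held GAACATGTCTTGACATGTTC, a 20-base match to the p53 response element at chr17:29090928-29090947. It lies 51 to 32 bases before the start at position 29090979. The search kept the C and G at the core of each part of the element and allowed 1 mismatch elsewhere. A match of this quality stood in 1 of the 9 promoters and in 22 of 32851 promoters of 300 bases in the RefSeq table (0.067%). GC boxes stood in 7 of the 9 promoters, against 35.7% of all promoters. CpG dinucleotides were 0.0892 of the number that base composition predicts at the upstream Cdkn1a start and 0.786 at the downstream one. This ratio was 0.442 at the p16Ink4a start of Cdkn2a, 1.04 at the p19Arf start, 0.722 at Cdkn2b and 1.04 at Cdkn1b. The median of all promoters was 0.384, and 8 of the 9 lay above it. These matches describe the letters in each window and were not tested for use in the tumours.

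None of the CDK inhibitors passed the test between vehicle and GSK343 tumours. Of the 7 genes, 6 were tested and 0 called, against 0.0828% of all lines called in either direction (12 lines, of which 0.069% higher and 0.0138% lower). Cdkn1a alone had an unadjusted p under 0.05, a level that 17.6% of all lines reached (6.86% lower and 10.7% higher). The estimates were lower after GSK343 for 5 of the 6, against 52.4% of all lines. The median log2 fold change of the 6 was -0.08, against -0.01 over all tested lines.

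**Figure D1:**
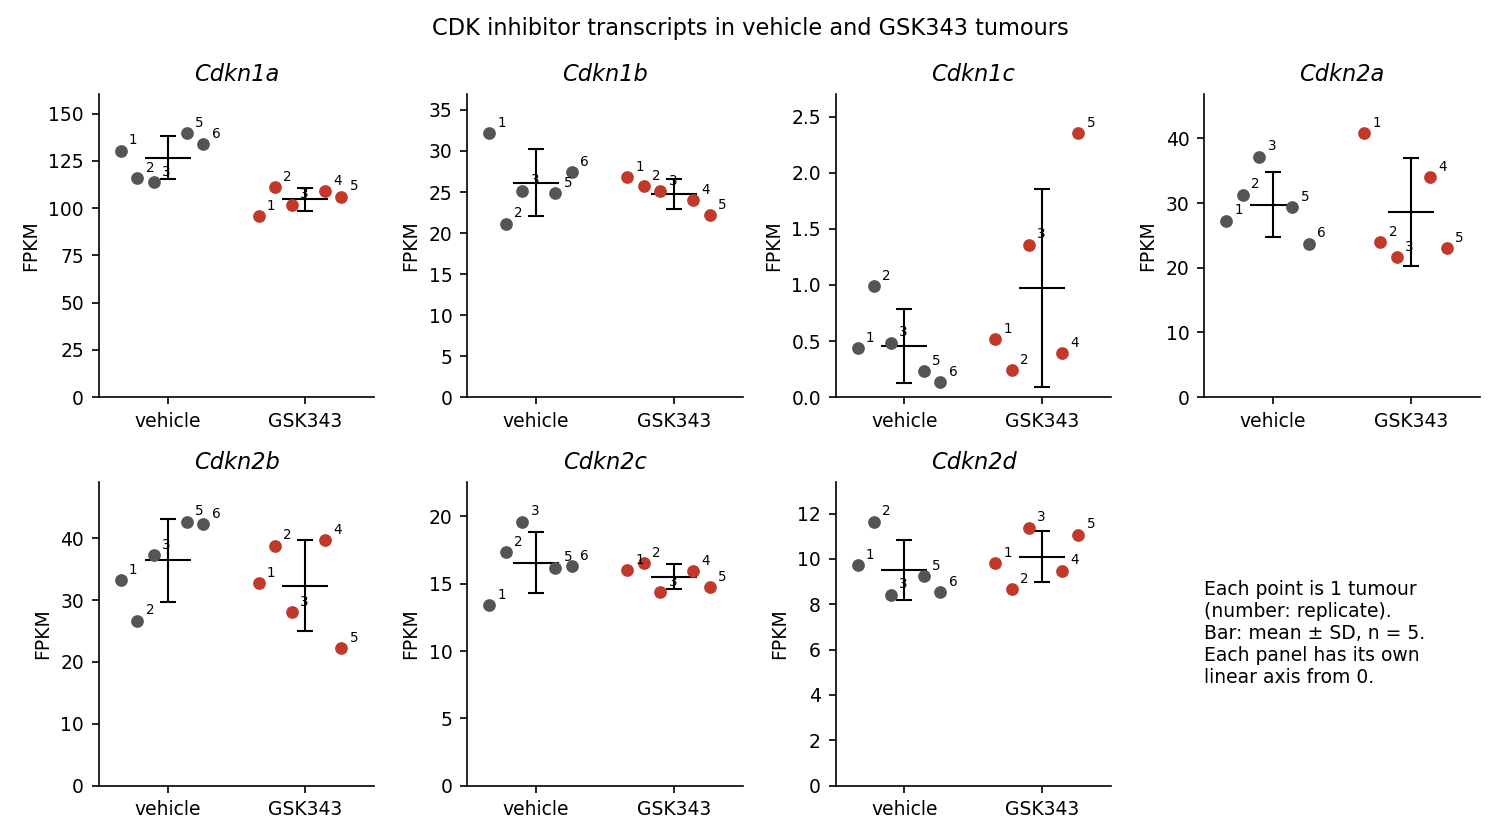
Levels of the 7 CDK inhibitors in FPKM (vertical axes, linear from 0, 1 scale per panel) in the 5 vehicle and 5 GSK343 tumours (horizontal axes), with the mean and SD of each group as bars and the tumour number beside each point. Only the Cdkn1a panel shows groups that do not overlap, at 113.6 to 139.7 FPKM for vehicle and 95.8 to 111.0 FPKM for GSK343.

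Cdkn1a, the p53-inducible inhibitor p21 (ENSMUSG00000023067.13, mm10 chromosome 17, 29090979 to 29100722, plus strand), was the most abundant of the family. Vehicle tumours 1, 2, 3, 5 and 6 held 130.4, 115.7, 113.6, 139.7 and 133.9 FPKM. GSK343 tumours 1 to 5 held 95.8, 111.0, 101.8, 109.1 and 106.0 FPKM. Every GSK343 tumour lay below every vehicle tumour, with a gap of 2.62 FPKM between the nearest, GSK343 tumour 2 and vehicle tumour 3. Groups that do not overlap were found for 2.62% of all lines, 1.2% with GSK343 lower and 1.42% with GSK343 higher. The means were 127 ± 11.4 and 105 ± 6.09 FPKM (SD, n = 5 per group), a difference of -17.3%. On the log2 scale the change was -0.27 (SE 0.0761, 95% interval -0.44 to -0.10), with an unadjusted limma p of 0.00500 and an adjusted p of 0.191, which was not a call. With the leukocyte score of each tumour as a covariate the estimate was -0.12 (limma adjusted p = 0.999). The 2 start sites shown above are summed in this value, and the opposite-strand gene AC167363.2 overlaps Cdkn1a. Since these are bulk tumours, fewer cells with a transcript and less of it per cell cannot be told apart here or in any result below.

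Cdkn1b, the inhibitor p27 that is controlled largely through protein stability (ENSMUSG00000003031.14, chromosome 6, 134920401 to 134925513, plus strand), differed little between the groups. The vehicle tumours held 32.2, 21.1, 25.2, 24.9 and 27.4 FPKM, in the order of their numbers. The GSK343 tumours held 26.8, 25.7, 25.1, 24.0 and 22.2 FPKM. Both the highest and the lowest value belonged to vehicle tumours, and the GSK343 values lay within their range. The means were 26.2 ± 4.05 and 24.8 ± 1.78 FPKM (log2 fold change -0.07, 95% interval -0.29 to 0.16, limma adjusted p = 0.768). With the leukocyte covariate the estimate was 0.14.

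Cdkn1c, the imprinted inhibitor p57 (ENSMUSG00000037664.13, chromosome 7, 143458339 to 143461050, minus strand), was close to the lower end of detection. The vehicle tumours held 0.437, 0.992, 0.486, 0.235 and 0.134 FPKM. The GSK343 tumours held 0.517, 0.242, 1.36, 0.394 and 2.35 FPKM. The highest values, 1.36 and 2.35 FPKM, were those of GSK343 tumours 3 and 5, which also had the highest mitochondrial shares, and the other 3 GSK343 tumours lay within the vehicle range. The part of the mitochondrial share in this result was not tested. The means of 0.457 ± 0.332 and 0.973 ± 0.885 FPKM left the gene under the filter, at 0.715 FPKM over the 10 tumours. Without a filter the log2 fold change was 0.36 (95% interval -0.27 to 0.99, limma adjusted p = 0.661), and without GSK343 tumours 3 and 5 it was -0.05. The antisense gene Gm44732 overlaps Cdkn1c, and the strand setting of the counting is not given in the sources used here.

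Cdkn2a (ENSMUSG00000044303.6, chromosome 4, 89274471 to 89294653, minus strand) encodes p16Ink4a and, from the other start, p19Arf, which protects p53 by binding MDM2. The table gives 1 value for both. The vehicle tumours held 27.3, 31.3, 37.2, 29.3 and 23.7 FPKM. The GSK343 tumours held 40.8, 23.9, 21.7, 33.97 and 23.0 FPKM, so that they included both the highest and the lowest tumour of the series. The group means of 29.8 ± 5.01 and 28.7 ± 8.35 FPKM differed by less than either SD (log2 fold change -0.08, 95% interval -0.48 to 0.32, limma adjusted p = 0.845). Without GSK343 tumours 3 and 5 the estimate was 0.12. The interval spans changes in both directions, so a modest rise or fall of this gene could not be told from none.

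Cdkn2b, which encodes the TGF-beta-inducible inhibitor p15 (ENSMUSG00000073802.4, chromosome 4, 89306289 to 89311032, minus strand), is separated from Cdkn2a by 11635 bases. The vehicle tumours held 33.2, 26.7, 37.3, 42.7 and 42.2 FPKM. The GSK343 tumours held 32.7, 38.8, 28.1, 39.7 and 22.3 FPKM. Low values stood in both groups, in vehicle tumour 2 and in GSK343 tumours 3 and 5. The means were 36.4 ± 6.69 and 32.3 ± 7.33 FPKM (log2 fold change -0.18, 95% interval -0.56 to 0.21, limma adjusted p = 0.618). Without GSK343 tumours 3 and 5 the estimate was 0.04, and with the leukocyte covariate it was 0.24.

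Cdkn2c, the inhibitor p18 (ENSMUSG00000028551.14, chromosome 4, 109660876 to 109667189, minus strand), varied least over the 10 tumours, with a coefficient of variation of 10.6%. The vehicle tumours held 13.4, 17.3, 19.6, 16.2 and 16.3 FPKM. The GSK343 tumours held 16.03, 16.5, 14.4, 15.9 and 14.8 FPKM, all within the vehicle range. The means were 16.6 ± 2.24 and 15.5 ± 0.905 FPKM (log2 fold change -0.08, 95% interval -0.29 to 0.13, limma adjusted p = 0.676).

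Cdkn2d, the inhibitor p19Ink4d (ENSMUSG00000096472.2, chromosome 9, 21288410 to 21291407, minus strand), was the one tested member with a higher estimate after GSK343. The vehicle tumours held 9.74, 11.6, 8.43, 9.25 and 8.52 FPKM. The GSK343 tumours held 9.83, 8.68, 11.4, 9.49 and 11.1 FPKM. The highest values were those of vehicle tumour 2 and of GSK343 tumours 3 and 5. The means were 9.52 ± 1.31 and 10.1 ± 1.12 FPKM (log2 fold change 0.08, 95% interval -0.15 to 0.31, limma adjusted p = 0.713). The estimate was -0.11 with the leukocyte covariate and -0.02 without GSK343 tumours 3 and 5.

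**Figure D2:**
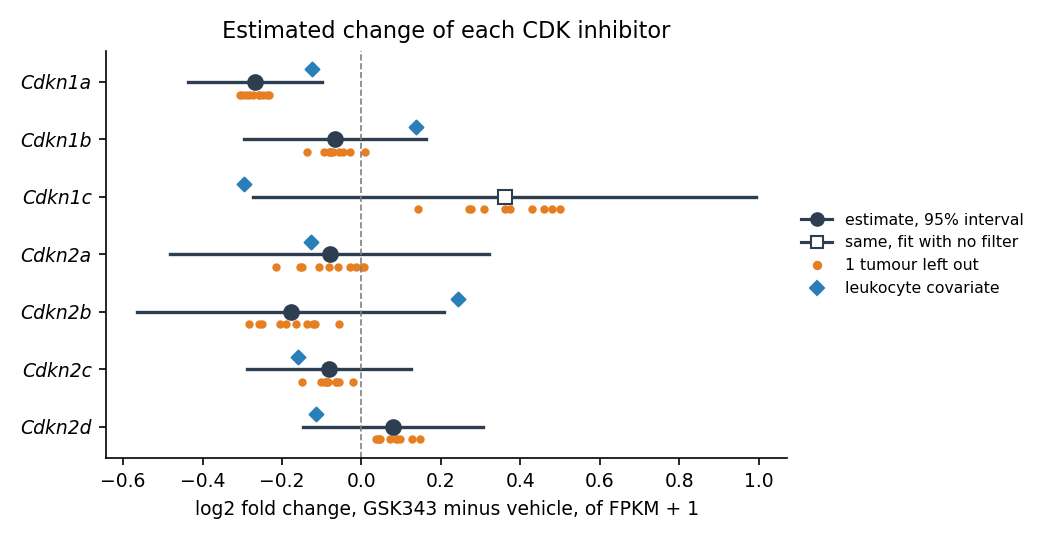
Log2 fold change of each CDK inhibitor (horizontal axis, GSK343 minus vehicle, of FPKM + 1) with its 95% interval, with each tumour left out in turn (orange) and with the leukocyte score as a covariate (blue diamonds). Cdkn1c is an open square because its value comes from the fit with no filter; of the 7 intervals only that of Cdkn1a, -0.44 to -0.10, lies on one side of 0.

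The order of the levels was steep at the top and nearly flat in the middle. Cdkn1a averaged 116 FPKM over the 10 tumours, Cdkn2b 34.4, Cdkn2a 29.2, Cdkn1b 25.5, Cdkn2c 16.1, Cdkn2d 9.80 and Cdkn1c 0.715 FPKM. In all 10 tumours Cdkn1a was highest, by 2.35 to 4.61 times the next member. Cdkn2b exceeded Cdkn2a in 7 of 10 tumours and Cdkn2a exceeded Cdkn1b in 6 of 10, and the ranges of these neighbours overlapped. The other neighbours kept their order in 10 of 10 tumours without overlap. Cdkn1a lay above 94.4% of all tested lines, whereas Cdkn2d lay above 49.8% of them.

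Cdkn1a made up 51.5 ± 2.63% of the summed FPKM of the 7 genes in vehicle tumours and 48.4 ± 3.59% in GSK343 tumours (SD, n = 5), with overlapping ranges. The sum of the CIP/KIP genes ran from 137.9 to 164.8 FPKM with vehicle and from 123.2 to 137.0 FPKM with GSK343, and Cdkn1a supplied most of it. The sum of the INK4 genes overlapped, at 83.7 to 102.5 and 71.1 to 99.4 FPKM. Cdkn2a and Cdkn2b, although neighbours, did not keep a fixed ratio. It ran from 0.561 in vehicle tumour 6 to 1.25 in GSK343 tumour 1.

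The members were set beside transcripts of other cell types across tumours, and the number of relations that passed changed with the tumours included. A marker score is the mean log2(FPKM + 1) of a marker list in a tumour. Each of the 6 tested members was compared with 9 such scores, and 10 of the 54 pairs had a permutation p under 0.05 after Benjamini-Hochberg adjustment (100000 resamples, two-sided; 16 unadjusted). Of these 10, 4 involve Cdkn1a. The number passing was 1 without vehicle tumour 3, 5 or 6 or GSK343 tumour 3, and 0 of 54 without GSK343 tumours 3 and 5, which leaves 8 tumours. Leukocyte genes were higher after GSK343 for 12 of 12 markers (median log2 fold change 0.79, 10 at an unadjusted limma p under 0.05, 0 called), and none was listed at 0. Macrophage genes were higher for 12 of 13 tested markers (0.92), T and natural killer cell genes for 12 of 12 (0.77) and fibroblast genes for 14 of 15 (0.55). Skeletal muscle genes were higher for 11 of 11 tested (1.76), while hepatoma genes were lower for 16 of 18 (-0.25) and keratinocyte genes for 5 of 5 tested (-1.12). None of these genes was called.

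Cdkn1a was highest in the tumours with the fewest leukocyte transcripts. The leukocyte score was 4.19, 4.38 and 4.27 in vehicle tumours 1, 5 and 6, which held 130.4 to 139.7 FPKM of Cdkn1a. It was 5.05 to 5.56 in vehicle tumours 3 and 2 and 5.12 to 6.03 in the GSK343 tumours, all of which held 115.7 FPKM or less. The gap of 0.677 between these sets was the largest between neighbouring scores, so no value over all 10 tumours is given for Cdkn1a. Within the 7 tumours above the gap the relation was not significant (Pearson r = -0.53, exact permutation p = 0.215, adjusted p = 0.421). The same 3 vehicle tumours had the lowest macrophage scores, where r within the 7 tumours was -0.56 (exact permutation p = 0.197). It was -0.33 for the T and natural killer cell score (exact permutation p = 0.459) and -0.42 for the fibroblast score (exact permutation p = 0.360). The part of these cells in the Cdkn1a difference was not tested beyond the covariate estimate above.

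Cdkn2b followed the endothelial score most closely, in the opposite direction. The endothelial genes themselves hardly differed between the groups (6 of 10 tested markers with a higher and 4 with a lower estimate, median 0.09, scores 2.80 to 3.04 in vehicle and 2.82 to 3.16 in GSK343 tumours, none listed at 0). Vehicle tumour 2 and GSK343 tumours 3 and 5 had the highest endothelial scores and the lowest Cdkn2b. Pearson r was -0.97 (permutation p adjusted to 0.00486) and Spearman rho -0.95 over the 10 tumours, -0.97 for deviations from the group means and -0.91 without the 2 tumours of most distant score. Without GSK343 tumours 3 and 5 it was -0.93. Cdkn2b was also lower where the T and natural killer cell score (r = -0.83, rho = -0.84, permutation p adjusted to 0.0301) and the fibroblast score (r = -0.83, rho = -0.81, adjusted p = 0.0301 by permutation) were higher. Without the 2 most distant tumours these were -0.74 and -0.63.

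Cdkn2d was related to the endothelial and the T and natural killer cell scores, with the opposite sign to Cdkn2b. It was higher where the endothelial score was higher (r = 0.83, rho = 0.79, permutation p adjusted to 0.0301; 0.78 without the 2 most distant tumours). The highest values, 11.1 to 11.6 FPKM, were those of the 3 tumours with the highest scores, and the other 7 tumours, at 8.43 to 9.83 FPKM, showed no steady order. With the T and natural killer cell score r was 0.81 (permutation p adjusted to 0.0400; 0.66 without the 2 most distant tumours). By Spearman rho that pair did not pass (0.77, adjusted permutation p = 0.0623). Cdkn2d did not pass with the fibroblast score (r = 0.65, permutation p adjusted to 0.148), unlike Cdkn2b. Among the 15 pairs of members, only Cdkn2b and Cdkn2d passed the adjustment for Pearson r (-0.86, permutation p adjusted to 0.0243; -0.84 without the 2 most distant tumours). By Spearman rho this pair did not pass (-0.78, adjusted permutation p = 0.164). Cdkn2a and Cdkn2b, which share a locus, showed no significant relation across tumours (r = 0.24, adjusted permutation p = 0.655, and rho = 0.18, adjusted permutation p = 0.788).

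**Figure D3:**
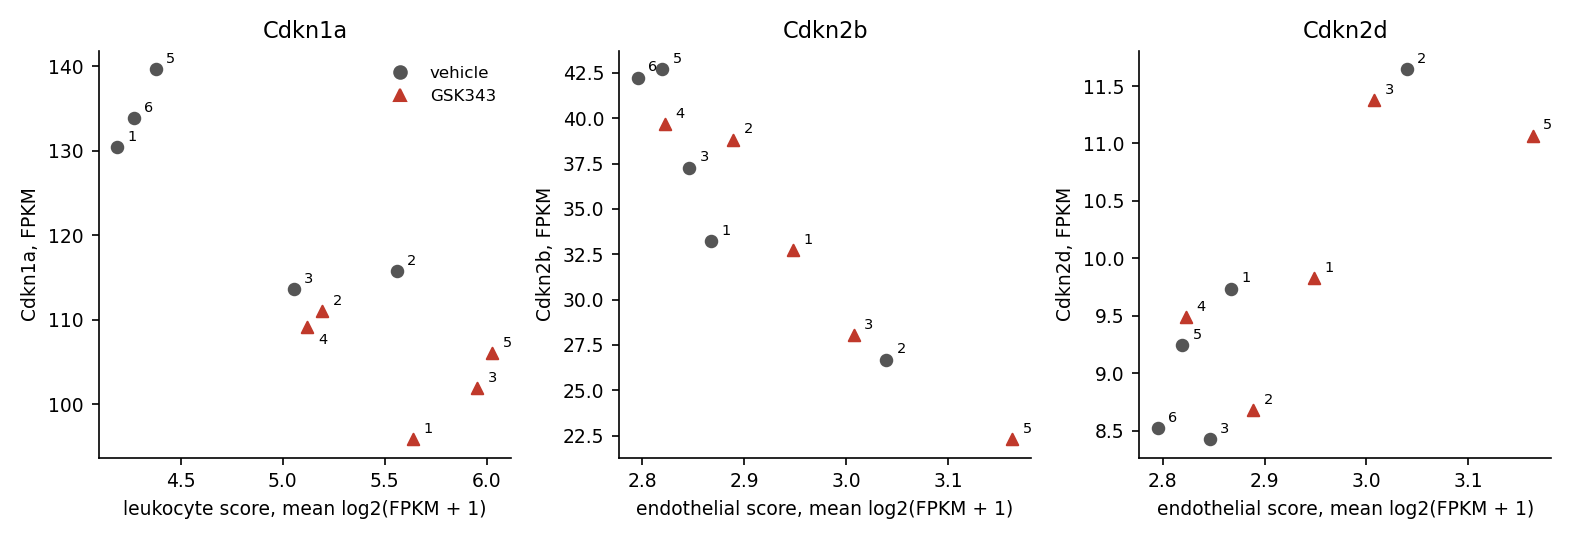
FPKM of Cdkn1a, Cdkn2b and Cdkn2d (vertical axes, not from 0) against the leukocyte or endothelial score of each tumour (horizontal axes, mean log2(FPKM + 1)); circles are vehicle and triangles GSK343 tumours, with their numbers. In the left panel vehicle tumours 1, 5 and 6 stand apart from the other 7, while Cdkn2b is lowest and Cdkn2d highest in vehicle tumour 2 and GSK343 tumours 3 and 5, which have the highest endothelial scores.

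Cdkn2c was the one member that passed with the proliferation score. Its r was 0.78 (rho = 0.83, permutation p adjusted to 0.0400), but 0.53 without vehicle tumour 1 and GSK343 tumour 3, so it rests in part on these tumours. The proliferation genes did not separate the groups (6 of 20 with a higher and 14 with a lower estimate, median -0.05, 0 called). Mki67, a marker of cycling cells, measured 22.6 ± 2.30 and 22.9 ± 2.30 FPKM. Over the 10 tumours Cdkn1b and Cdkn2a passed with none of the 9 scores. Within the 7 tumours above the leukocyte gap, Cdkn2a passed with the hepatoma score (r = 0.97, exact permutation p adjusted to 0.0482). Over all 10 tumours r was 0.35 (adjusted permutation p = 0.609) and rho 0.62 (adjusted permutation p = 0.195).

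The kinases and cyclins that the inhibitors act on had mostly lower estimates after GSK343. Of 13 tested genes 12 were lower and 1 higher, with a median of -0.13, and 0 were called. Cdk4, the main target of the INK4 proteins, measured 265 ± 32.3 and 199 ± 22.9 FPKM (log2 fold change -0.41, SE 0.109, limma adjusted p = 0.191), and its groups overlapped only slightly, at 214.7 to 293.3 and 164.1 to 217.1 FPKM. With the leukocyte covariate the Cdk4 estimate was -0.20 (limma adjusted p = 0.999). Its relative Cdk6 measured 10.4 ± 1.27 and 9.40 ± 0.677 FPKM. Cdk2, the main target of the CIP/KIP proteins, measured 21.3 ± 7.51 and 17.1 ± 9.38 FPKM. Among the D-type cyclins, Ccnd1 measured 180 ± 34.2 and 159 ± 16.1, Ccnd3 34.5 ± 5.03 and 28.2 ± 9.74, and Ccnd2, the exception, 6.16 ± 1.75 and 8.46 ± 1.06 FPKM (limma adjusted p = 0.243). The Ccnd2 log2 fold change was 0.43, and 0.0467 with the leukocyte covariate (limma adjusted p = 0.999). The E-type cyclins Ccne1 and Ccne2 measured 7.90 ± 1.55 and 6.61 ± 0.928 FPKM and 6.08 ± 1.98 and 5.71 ± 0.920 FPKM.

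Downstream of the kinases, 7 of 13 retinoblastoma and E2F genes had higher and 6 lower estimates (median 0.03, 0 called). Rb1, the retinoblastoma protein, measured 3.52 ± 0.694 and 4.52 ± 0.830 FPKM, and its relative Rbl1 8.72 ± 2.29 and 9.94 ± 1.11 FPKM. The activator E2f1 measured 7.42 ± 0.740 and 7.78 ± 1.95 FPKM, and the repressor E2f4 26.1 ± 1.64 and 24.9 ± 0.445 FPKM.

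Genes that destroy CIP/KIP proteins were lower for 9 of 13 and higher for 4, with a median of -0.14 and 0 called. Skp2, which marks p27 for degradation, measured 10.6 ± 2.39 and 8.97 ± 0.826 FPKM, and its cofactor Cks1b 109 ± 20.2 and 92.2 ± 7.60 FPKM.

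Regulators of the INK4/ARF locus had lower estimates for 22 of 27 tested genes (median -0.08, 0 called). Ezh2, whose product GSK343 inhibits, measured 55.2 ± 7.65 and 44.8 ± 6.60 FPKM. Its level does not report the activity of the enzyme. Bmi1, a Polycomb protein that represses the locus, measured 11.3 ± 1.27 and 11.2 ± 0.176 FPKM. Kdm6b, a demethylase that removes the mark EZH2 sets, measured 9.82 ± 0.853 and 9.33 ± 0.917 FPKM. Cbx7, another Polycomb protein, lay under the filter at 0.588 ± 0.389 and 1.35 ± 0.776 FPKM. Junb, of the same list, is listed at 0 in vehicle tumour 2 on the line used, while 258.4 FPKM stands on another line of that identifier.

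On the list of Trp53 and p53 targets, 12 of 21 genes had lower and 9 higher estimates (median -0.09, 0 called). At an unadjusted limma p under 0.05, 4 were lower and 2 higher. The higher ones were Btg2 and Fas. Btg2 measured 26.7 ± 3.01 and 42.1 ± 11.9 FPKM (log2 fold change 0.60, limma adjusted p = 0.191). Its groups did not overlap, as for 1.42% of all lines with GSK343 higher. Fas measured 12.3 ± 2.97 and 17.5 ± 3.55 FPKM (log2 fold change 0.48, limma adjusted p = 0.218). Trp53 measured 79.5 ± 16.7 and 71.8 ± 4.04 FPKM. Mdm2, a p53 target and its inhibitor, measured 36.7 ± 7.20 and 26.3 ± 2.80 FPKM (log2 fold change -0.45, SE 0.142, limma adjusted p = 0.201). Without vehicle tumour 2 the Mdm2 estimate was -0.58 (limma adjusted p = 0.0465), and with the leukocyte covariate it was -0.13 (limma adjusted p = 0.999). Ccng1, another p53 target, measured 73.7 ± 14.6 and 62.1 ± 4.97 FPKM.

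TGF-beta and FOXO inputs, which act on Cdkn2b, Cdkn1a and Cdkn1b, had 8 higher and 7 lower estimates of 15 tested (median 0.01, 0 called). Tgfb1, the main ligand of the pathway, measured 81.8 ± 6.53 and 78.4 ± 8.81 FPKM. Tgfb3 was higher, at 3.33 ± 0.259 and 4.28 ± 0.391 FPKM (log2 fold change 0.28, limma adjusted p = 0.191). Its groups did not overlap, as for 1.42% of all lines with GSK343 higher. Myc, which represses several of the inhibitors, measured 84.0 ± 19.9 and 70.4 ± 11.3 FPKM, and Foxo3 9.46 ± 1.304 and 8.40 ± 1.03 FPKM.

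Genes listed as lying in the regions around the inhibitors had lower estimates for 10 of 12 tested and higher ones for 2 (median -0.13, 0 called). Their distances from the inhibitors were not measured, and other genes may lie between. Mtap, the neighbour of Cdkn2a and Cdkn2b, measured 59.1 ± 7.38 and 52.1 ± 4.88 FPKM. Kcnq1ot1, the long non-coding RNA of the imprinted domain of Cdkn1c, measured 1.32 ± 0.311 and 0.992 ± 0.336 FPKM. Phlda2 of the same domain lay under the filter at 0.151 ± 0.147 and 0.0206 ± 0.0284 FPKM. Pim1, 1 of the 2 genes of this list with a higher estimate, measured 25.6 ± 4.96 and 37.9 ± 6.15 FPKM (log2 fold change 0.56, limma adjusted p = 0.191).

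**Figure D4:**
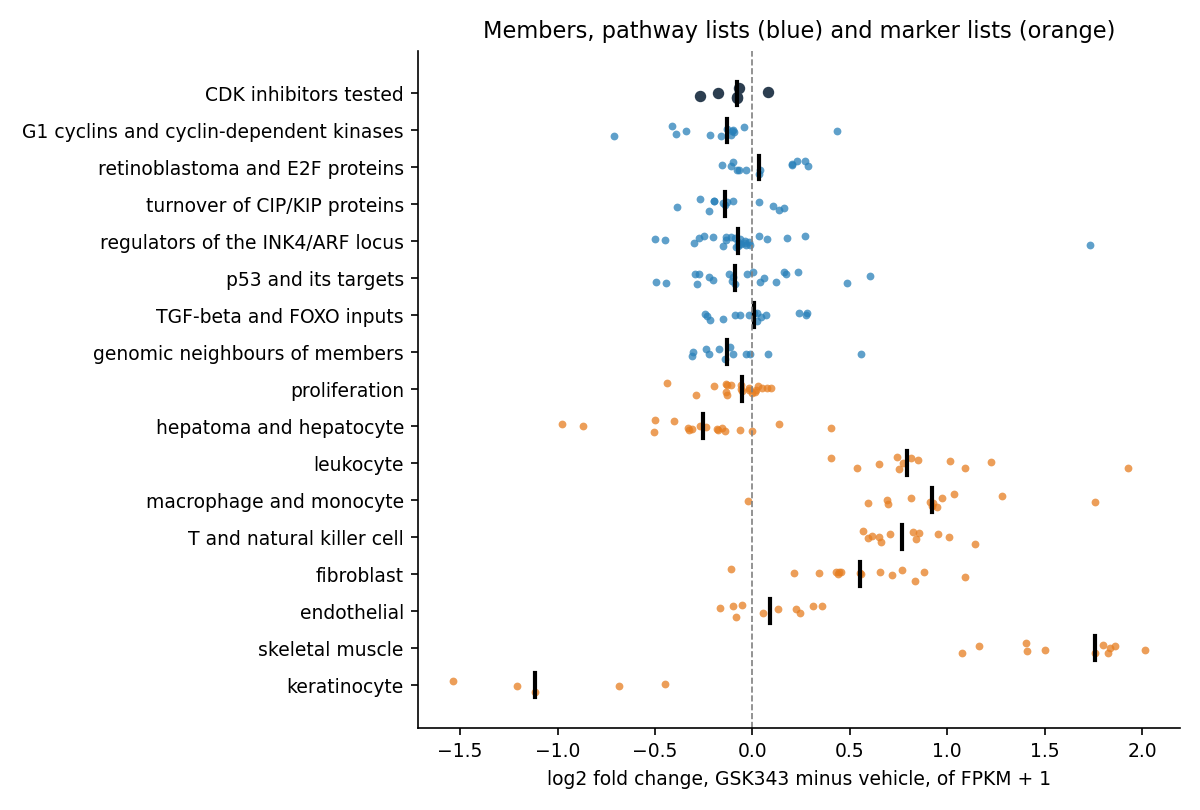
Log2 fold change (horizontal axis, GSK343 minus vehicle, of FPKM + 1) of each tested gene in the CDK inhibitor set, the pathway lists (blue) and the marker lists (orange), with black bars for the medians. The inhibitors and pathway lists have medians between -0.14 and 0.03, whereas those of the leukocyte, macrophage, T and natural killer cell, fibroblast and skeletal muscle lists lie between 0.55 and 1.76.

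For each tested member the 2 most similar lines were sought among 11878 named lines, by Pearson r of the deviations from the group means over the 10 tumours. They are a description, since the highest of so many values is high by selection. Cdkn1a was most like Ptp4a3, a phosphatase (r = 0.94), and AC148989.5 (0.92). Cdkn1b was most like Txlnb (0.95) and Ksr2 (0.94), both near 1 to 2 FPKM. Cdkn2a was most like Vps13d (0.97) and Rabepk (0.89). Cdkn2b was most like Vmn2r96, also near 1 to 2 FPKM, and AC131992.1 (0.97 for both). Cdkn2c was most like Pcdh12 (0.97), a protocadherin, and Samd4 (0.96), again both near 1 to 2 FPKM. Cdkn2d was most like AC130827.2 (0.98) and Lgals3 (0.96), the latter encoding galectin-3 at a mean of 199 FPKM with vehicle and 285 FPKM with GSK343.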

How the data were processed

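RNA sequencing of 10 tumours was used. The authors deposited a table with no unit in its header, whose values were read as FPKM from their sums and steps. The submitters' processing notes name HISAT2 2.1.0 and the mm10 build, StringTie 1.3.3b, and Trimmomatic 0.33. Whether counting used strand is not given in the sources used here. The table had 55020 lines, and 10 further columns without name or values were not used. Whole reads were not recovered, and FPKM carry no counting interval.

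From these values, log2(FPKM + 1) was fitted with limma 3.58.1 (R 4.3.3, intensity trend, two-sided) over lines that averaged 1 FPKM or more. On this scale the change of low genes is understated. The test was checked on simulated data. Correlations used 100000 permutations for 10 tumours and all orders for fewer. Gene overlaps came from GENCODE M21. The p53 search was chosen after the sequence was seen.

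Members, lists and named genes were chosen by role, with earlier results of these data known. Btg2, Fas, Pim1 and Tgfb3, which are on the lists, were named after the data were seen. The most similar lines were named by a rule that passes over predicted genes. The values of 1 gene chosen by role are not reported here. The series' design text calls the tumours biological replicates. Alternatives covered the filter, pseudocount, scaling, variance model, weights, a leukocyte covariate, summed lines, the number as a block and each tumour left out. A fit of the shared numbers without the block, the alternatives of the correlations and the fits with no filter for genes under it were added after the data were seen.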

Additional observations from a re-analysis of the deposited data

Results flagged for a closer look

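Of 104 groups of 5 tumours examined (genes and list scores), 10 held 1 tumour far from the other 4, where chance gives about 1 in 20. None was a CDK inhibitor. Ccne2 was 4.08 FPKM in GSK343 tumour 4, against 5.92 to 6.21 in the other GSK343 tumours. E2f1 was 11.2 FPKM in GSK343 tumour 2, against 6.29 to 7.64, and Ezh2 was 56.3 FPKM in the same tumour, against 40.6 to 44.3. The score of the neighbouring genes was 4.10 there, against 3.93 to 3.97. Rbl1 was 4.71 FPKM in vehicle tumour 1, against 9.19 to 10.3 in the other vehicle tumours. In that tumour the retinoblastoma and E2F score was 2.66, against 2.81 to 2.87, and the hepatoma score was 5.88, against 5.14 to 5.29. Cks1b was 144.4 FPKM in vehicle tumour 6, against 93.7 to 104.5. The score of the INK4/ARF regulators was 3.53 in vehicle tumour 2, where Junb is listed at 0, against 3.90 to 4.03. The keratinocyte score was 2.45 in GSK343 tumour 5, against 0.715 to 1.18.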

How the results depend on the processing

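No CDK inhibitor was called under any of the alternatives run, 22 for each tested member and 19 for Cdkn1c. Cdkn1a and Cdkn2c kept a lower estimate in all of theirs. The Cdkn1a estimate ran from -0.31 to -0.12 (limma adjusted p from 0.0705 to 0.999) and from -0.31 to -0.23 with 1 tumour left out. With 1 tumour left out the ranges were -0.14 to 0.00930 for Cdkn1b (the latter without vehicle tumour 1), -0.21 to 0.00659 for Cdkn2a (0.002296 without vehicle tumour 3 and 0.00659 without GSK343 tumour 3), -0.28 to -0.0567 for Cdkn2b, -0.15 to -0.0209 for Cdkn2c, 0.0379 to 0.15 for Cdkn2d and 0.14 to 0.50 for Cdkn1c. The leukocyte covariate turned Cdkn1b to 0.14, Cdkn2b to 0.24, Cdkn2d to -0.11 and Cdkn1c to -0.30. It also turned Cdk6 (0.0514), Ccnd1 (0.0261), Ccne2 (0.00728), Rb1 (-0.0337), Rbl1 (-0.0410), Bmi1 (0.10), Cbx7 (-0.11), Kdm6b (0.12), Tgfb1 (0.10), Myc (0.19), Foxo3 (0.0832), Phlda2 (0.000399) and Mki67 (-0.0928). Leaving out GSK343 tumours 3 and 5 turned Cdkn2a (0.12), Cdkn2b (0.0396), Cdkn2d (-0.0185), Cdkn1c (-0.0504), Cdk2 (0.18), Kdm6b (0.0235) and Tgfb1 (0.0269). Quantile normalization turned E2f1 (-0.0209). With 1 tumour left out Ccne2 ran from -0.16 to 0.0892, E2f1 from -0.0821 to 0.10, Bmi1 from -0.0628 to 0.0413 and Mki67 from -0.0385 to 0.0732. The cause was not tested. Of the pathway lists, the p53 median was 0.03, the TGF-beta and FOXO median 0.08 and the neighbour median -0.04 with the covariate, and the retinoblastoma and E2F median was -0.06 without GSK343 tumour 2.

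The 12 calls over all lines became 6 with no filter, 3 at a mean of at least 5 FPKM, 7 with quantile normalization, 2 with the leukocyte covariate and 4 without GSK343 tumours 3 and 5. They numbered 3 to 98 with 1 tumour left out, the highest without vehicle tumour 2 and the next, 37, without GSK343 tumour 1. The replicate block, the tumour number as a term for the shared numbers 1, 2, 3 and 5, gave 2 calls, and the same 8 tumours without the block gave 5. With the block Cdkn1a was -0.26 (limma adjusted p = 0.481), Ccne2 turned to 0.19 and Bmi1 to 0.0401, as they did without it in those tumours. Same-numbered tumours did not deviate together (r = -0.11, -0.33, 0.03 and -0.19) and 0 of the 4 vehicle tumours correlated best with their own number. Whether the numbers pair the tumours is not stated in the labels used here, and so few values cannot settle it.

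The 10 relations between members and marker scores became 1 to 9 with 1 tumour left out and 0 of 54 without GSK343 tumours 3 and 5, where 8 tumours remain. In the 7 tumours above the leukocyte gap 1 of the 10 remained, Cdkn2b with the endothelial score (exact permutation p adjusted to 0.0429). Cdkn2a with the hepatoma score passed in addition, in this subset set after the data were seen.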
